A study of Homo sapiens with 15 samples.

Results

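Transcripts of 10 S100 calcium-binding proteins were followed in HCC95 cells after knockdown of a squamous transcription factor. The genes were S100A2, S100A4, S100A6, S100A7, S100A8, S100A9, S100A10, S100A11, S100A14 and S100A16, taken by symbol from the 61544 genes of the count table, which holds 22 S100 gene symbols. HCC95 is a human lung squamous cell carcinoma (LUSC) cell line. The cells were transfected with a small interfering RNA (siRNA) against TP63 (siTP63b), SOX2 (siSOX2b), KLF5 (siKLF5b) or GRHL2 (siGRHL2a), or with the negative control siRNA siNC1. Each of these 5 groups had 3 RNA-seq libraries, and each factor was knocked down with 1 siRNA in 1 cell line. The labels do not state whether the libraries of a group came from separate cultures, so the p-values measure the spread between libraries, which may be technical.

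S100 proteins are small calcium sensors with paired EF-hand domains, and most of them work as dimers that change shape when calcium binds and then grip a partner protein. Their genes lie in a cluster on the long arm of chromosome 1, next to genes of the epidermal differentiation complex. S100A8 and S100A9 form calprotectin, an antimicrobial complex of myeloid cells that stressed squamous epithelium also makes, and S100A7 is psoriasin, an antimicrobial protein of keratinocytes. S100A10 and S100A11 bind annexins at membranes. S100A2 is a keratinocyte protein of the basal layer and a known p63 target, S100A4 is linked to cell motility, S100A6 binds calcyclin-binding protein, and S100A14 and S100A16 are epithelial members of the family.

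Library totals ranged from 15655495 to 24845273 counts in the siNC1 and siKLF5b libraries and from 22255856 to 34229063 in the other 9. These are also separate sets of count columns, told apart by their names. Among counts from 20 to 500, 49.7 to 50.7% were even in the first set and 66.1 to 69% in the second. The column set and the knockdown cannot be told apart between siNC1 and siTP63b, siSOX2b or siGRHL2a, so siKLF5b was tested against siNC1, the other 3 groups were tested against each other, and levels across the sets are given side by side without a test. Levels are CPM, the counts scaled to library size with TMM factors. KLF5 was at 107 to 123 CPM in siNC1 and at 71.8 to 73.8 CPM in siKLF5b. TP63 was at 350.0 to 389 CPM in siTP63b, against 647 to 719 in siSOX2b and 806.5 to 862 in siGRHL2a. SOX2 was at 7.09 to 10.1 CPM in siSOX2b, against 27.1 to 31.5 in siTP63b and 18.4 to 21.2 in siGRHL2a. GRHL2 was at 90.8 to 91.9 CPM in siGRHL2a, against 115.5 to 120.0 in siTP63b and 96.0 to 105.1 in siSOX2b, the narrowest separation of the 4 targets.

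The 10 genes are protein-coding and lie on chromosome 1 between 151982915 and 153616986 of hg38, a region of 1.634071 Mb. S100A9 is on the plus strand and the other 9 are on the minus strand. From low to high coordinate they are S100A10 (ENSG00000197747.9, 151982915 to 151993859), S100A11 (ENSG00000163191.6, 152032506 to 152047907), S100A9 (ENSG00000163220.11, 153357854 to 153361023), S100A8 (ENSG00000143546.10, 153390032 to 153391073) and S100A7 (ENSG00000143556.9, 153457744 to 153460651). They are followed by S100A6 (ENSG00000197956.10, 153534599 to 153536244), S100A4 (ENSG00000196154.12, 153543613 to 153550136), S100A2 (ENSG00000196754.13, 153561108 to 153567890), S100A16 (ENSG00000188643.11, 153606886 to 153613145) and S100A14 (ENSG00000189334.9, 153614255 to 153616986). Counts covered the whole span of a gene, introns included.

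Reads can be shared at 3 of these loci. S100A4 overlaps S100A3 on the same strand over 1930 bases, and S100A3 had 19.9% as many counts as S100A4 over the 15 libraries. S100A6 overlaps the opposite-strand lncRNA ENSG00000238279 over 531 bases, and S100A11 overlaps the opposite-strand lncRNA ENSG00000229021 over 10269 bases. The sources used here do not state whether counting used strand, so reads of these genes and of their antisense partners cannot be told apart, and their values are uncertain. S100A7 has a near-identical copy, S100A7A, which had 0 to 2 counts in every library.

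The 250 bases before the RefSeq start (GRCh38.p14) are shown for S100A9, S100A4 and S100A7, the 3 genes with a difference past both thresholds in at least 1 comparison below. RefSeq held a window for 10 of the 10 genes, 14 windows in all because some genes have several starts. The windows are printed 5′ to 3′ on the strand of the gene, and capitals mark a match on either strand to the KLF and SP box CCCCNCCC or to the SOX core ACAAAG or ACAATG. They lie at chr1:153357604-153357853 (plus strand) for S100A9, chr1:153545807-153546056 (minus strand) for S100A4 and chr1:153460652-153460901 (minus strand) for S100A7.
S100A9: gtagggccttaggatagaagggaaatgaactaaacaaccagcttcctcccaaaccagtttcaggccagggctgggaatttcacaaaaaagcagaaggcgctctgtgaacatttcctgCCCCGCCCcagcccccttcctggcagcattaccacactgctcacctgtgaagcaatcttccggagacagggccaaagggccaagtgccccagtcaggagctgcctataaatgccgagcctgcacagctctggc
S100A4: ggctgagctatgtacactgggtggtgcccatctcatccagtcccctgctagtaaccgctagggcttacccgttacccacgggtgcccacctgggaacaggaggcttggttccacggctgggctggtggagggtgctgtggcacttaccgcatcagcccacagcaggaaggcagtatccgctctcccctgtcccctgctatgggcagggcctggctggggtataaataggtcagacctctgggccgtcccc
S100A7: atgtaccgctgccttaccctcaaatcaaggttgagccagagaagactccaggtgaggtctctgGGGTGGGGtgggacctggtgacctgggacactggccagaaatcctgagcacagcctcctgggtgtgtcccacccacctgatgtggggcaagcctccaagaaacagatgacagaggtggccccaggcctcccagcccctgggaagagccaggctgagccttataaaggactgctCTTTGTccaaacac
The start used for S100A4 lies inside the counted span of that gene.

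The S100A9 window has 1 KLF and SP box, the S100A7 window has 1 box and 1 SOX core, and the S100A4 window has neither. In all, the box was found in 10 of the 14 windows, and it is present in 36.0% of the 35116 RefSeq windows of this length. Overlapping windows of S100A8 share the same box, so the 14 windows are not independent. By gene, the box was in 8 of the 10, the exceptions being S100A2 and S100A4. This share by gene is not comparable with the share of windows. The SOX core was found in 1 of the 14 windows, that of S100A7, and in 21.2% of all windows. The GRHL core AACCGGTT and the paired p63 core, CATG repeated after a gap of 6 bases, were in 0 of the 14 windows, against 0.117% and 0.296% of all windows. These are matches of letters in a short window, not measured binding.

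Levels of different genes were set side by side as CPM per kilobase of exon, although the counts covered introns too, so the order of genes is approximate. On this scale S100A10 had the highest level in siNC1, at 92.96 ± 6.11 CPM per kb (SD, n = 3). S100A11 (61.4 ± 1.76) and S100A6 (58.5 ± 4.24) followed, and their libraries overlapped. Next came S100A14 at 37.2 ± 4.17, S100A9 at 20.8 ± 2.85 and S100A2 at 14.5 ± 0.716 CPM per kb. S100A16 was at 5.23 ± 0.362, S100A8 at 2.07 ± 0.199, S100A4 at 1.49 ± 0.182 and S100A7 at 0.496 ± 0.281 CPM per kb. S100A11 with S100A6 was the only neighbouring pair in this order whose siNC1 libraries overlapped. S100A7 had the lowest group mean in all 5 groups, with libraries that overlapped those of S100A4 in siSOX2b and siGRHL2a. Divided instead by the whole counted span, a scale added after the data were seen, the siNC1 order began with S100A6 (34.5 ± 2.50 CPM per kb of span), S100A14 (17.4 ± 1.95) and S100A10 (8.60 ± 0.565), S100A11 was at 2.59 ± 0.0741, and S100A4 and S100A7 were again last. The places of S100A10 and S100A11 thus depend on the length used.

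The order by exon length changed in places between groups. In siKLF5b, S100A2 stood above S100A9 with overlapping libraries, at 11.75 and 11.4 CPM per kb. In siTP63b, S100A6 (79.3 ± 2.03 CPM per kb) stood above S100A11 (60.8 ± 3.66) without overlap. In siGRHL2a, S100A8 (6.58 ± 1.57) stood above S100A16 (6.08 ± 0.506) with overlap. S100A10, S100A6, S100A14 and S100A11 together held 80.9 to 85.4% of the summed CPM of the 10 genes in every library. That sum was 279 to 288 CPM in siNC1 and 228 to 233 in siKLF5b, a drop without overlap. It was 351 to 353 in siTP63b, 330.5 to 347 in siSOX2b and 328 to 352 in siGRHL2a, which overlap in part.

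**Figure D1:**
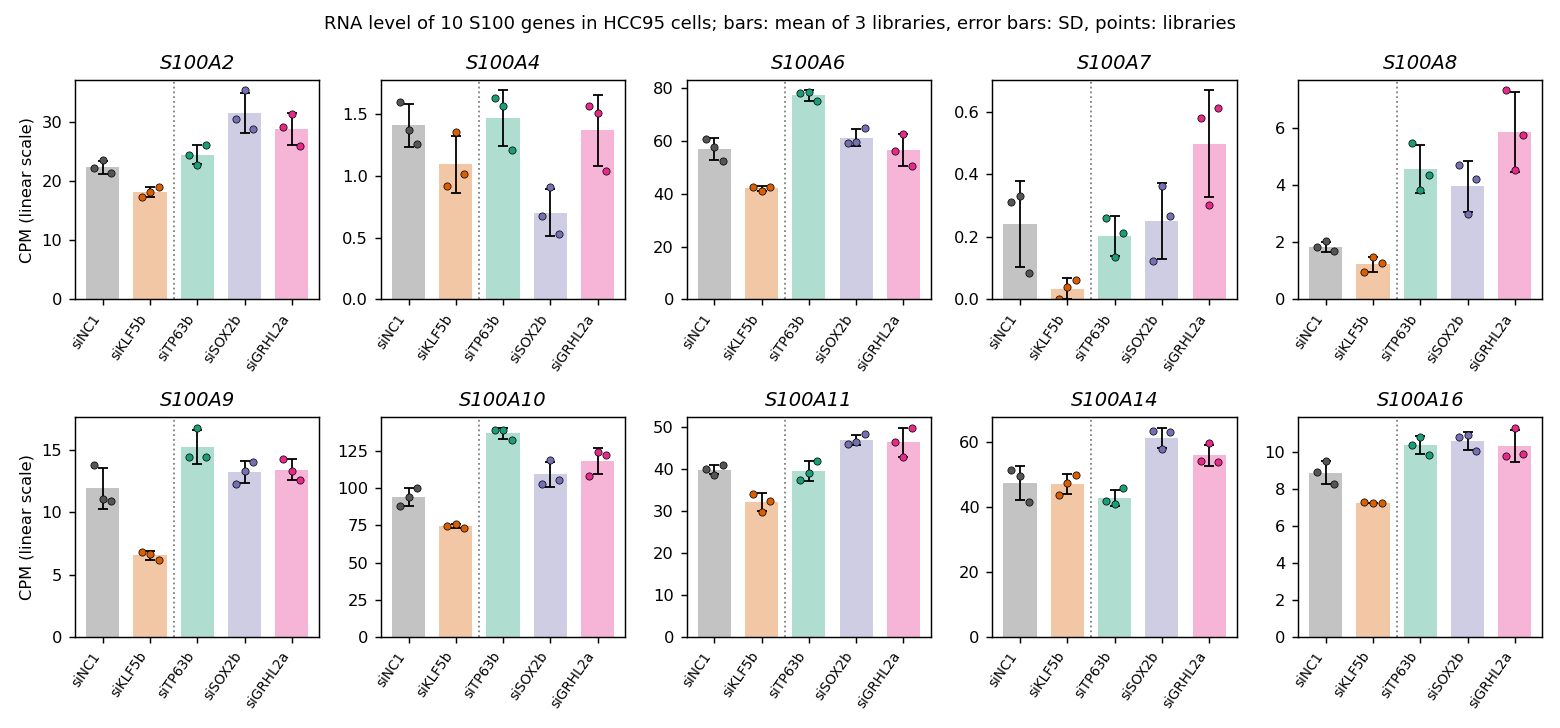
CPM of the 10 S100 genes in each of the 15 libraries, 1 panel per gene on its own linear axis, with points for libraries, bars for group means and error bars for the SD (n = 3), and a dotted line between the column sets. For S100A9 the 3 siKLF5b libraries, at 6.17 to 6.82 CPM, sit below all other libraries, and for S100A4 the siSOX2b libraries, at 0.531 to 0.909 CPM, sit below those of siTP63b and siGRHL2a.

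Comparing siKLF5b with siNC1 asked which S100 transcripts change when KLF5 is knocked down. S100A9, S100A7, S100A6, S100A10, S100A11 and S100A2 were lower at an adjusted p below 0.05, by the quasi-likelihood test of edgeR with p adjusted after Benjamini and Hochberg over all genes. S100A9 fell by 45.0%, the most of those with more than a few counts, S100A6 fell by 26.2%, and S100A2 fell by 18.8%, the least. In numbers, 6 of the 10 genes fell at an adjusted p below 0.05, a call made for 12.9% of the 25108 genes tested, and 0 rose, a call made for 10.3% (0 also at an unadjusted p below 0.05, where 15% of all genes were higher, and by DESeq2). With the added threshold of an absolute log2 fold change (log2FC) above 0.75, 2 of the 10 were lower, S100A9 and S100A7, against 1.37% of all genes, and 0 were higher, against 1.89%. Of these 2, S100A7 had 0 to 7 counts in these libraries and entered the test through 1 siSOX2b and 2 siGRHL2a libraries that reached the low-count cutoff. With S100A7 set apart, 1 of 9 was lower past both thresholds and 5 of 9 at an adjusted p below 0.05. The median log2FC of the 10 genes was −0.34, −0.33 without S100A7, and that of all genes tested was −0.0097. The libraries of the groups did not overlap for 8 of the 10, all lower in siKLF5b, a pattern seen in 22.5% of all genes.

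S100A9, the more abundant of the calprotectin pair in these cells, was at 13.8, 11.03 and 10.9 CPM in siNC1 and at 6.82, 6.62 and 6.17 CPM in siKLF5b. Every siKLF5b library was below every siNC1 library. Its log2FC was −0.86 ± 0.117 (SE, edgeR, adjusted p = 1.16e-06). Without siNC1 replicate 1, the highest library, the log2FC was −0.746, under the 0.75 threshold. S100A8, its binding partner, was at 1.82, 2.03 and 1.68 CPM in siNC1 and at 0.961, 1.48 and 1.27 CPM in siKLF5b. These libraries did not overlap either, but the test was not passed (log2FC −0.56, 95% interval −1.09 to −0.033, edgeR adjusted p = 0.141). The ratio of S100A8 to S100A9 CPM was 0.132 to 0.184 in siNC1 and 0.141 to 0.224 in siKLF5b.

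S100A7 was close to the limit of detection. It had 7, 6 and 2 counts in siNC1 and 0, 1 and 1 in siKLF5b, where counts up to 3 in a library were treated as a floor. The CPM were 0.310, 0.329 and 0.0839 in siNC1 and 0, 0.0411 and 0.0636 in siKLF5b. Of the summed counts, 2 against 15, the depth-scaled ratio was 0.146, with an exact 95% interval of 0.0162 to 0.626 that covers counting error only. The call (edgeR adjusted p = 0.0427) was lost without siNC1 replicate 1 (0.148), without siNC1 replicate 2 (0.132) and without each siKLF5b library (0.178, 0.107 and 0.0607), and with the replicate number as a block (0.0533).

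S100A10 and S100A11, which bind annexins, both fell. S100A10, which joins annexin A2 in a heterotetramer at the plasma membrane, was at 88.0, 93.8 and 100.4 CPM in siNC1 and at 74.7, 75.8 and 73.5 CPM in siKLF5b (log2FC −0.33 ± 0.062, edgeR adjusted p = 0.000113). S100A11, a partner of annexin A1, was at 40.03, 38.6 and 40.9 CPM in siNC1 and at 33.9, 29.8 and 32.5 CPM in siKLF5b (log2FC −0.32 ± 0.071, adjusted p = 0.00109). For each of them the siKLF5b libraries all lay below the siNC1 libraries. ENSG00000229021, the lncRNA opposite S100A11, had 104.3 to 111.3% as many counts as S100A11 in all libraries and a log2FC of −0.30 (adjusted p = 0.00168), so the pair moved together in the counts.

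S100A6, calcyclin, was at 60.5, 57.6 and 52.3 CPM in siNC1 and at 42.5, 40.9 and 42.4 CPM in siKLF5b, with no overlap (log2FC −0.44 ± 0.070, edgeR adjusted p = 1.51e-05). Its opposite-strand lncRNA ENSG00000238279 had a log2FC of −0.45 (adjusted p = 3.17e-05). S100A2 was at 22.2, 23.5 and 21.4 CPM in siNC1 and at 17.3, 18.2 and 19.0 CPM in siKLF5b (log2FC −0.30 ± 0.092, adjusted p = 0.0155). The libraries of S100A2 did not overlap, but the call was lost without siNC1 replicate 2 (adjusted p = 0.0703) and without siKLF5b replicate 1 (0.0713).

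The other 3 genes did not pass. S100A16 was at 8.91, 9.49 and 8.26 CPM in siNC1 and at 7.27, 7.23 and 7.25 CPM in siKLF5b, lower without overlap (log2FC −0.29, 95% interval −0.51 to −0.071, edgeR adjusted p = 0.0594). S100A4 had 25 to 36 counts in siNC1 and 16 to 33 in siKLF5b, and its libraries overlapped (1.60, 1.37 and 1.26 CPM against 0.915, 1.36 and 1.02 CPM). Its log2FC was −0.35, with a 95% interval of −0.93 to 0.23 and an adjusted p of 0.456 from edgeR. S100A14 was at 51.3, 49.7 and 41.4 CPM in siNC1 and at 43.7, 47.3 and 49.99 CPM in siKLF5b, fully overlapping (log2FC −0.015, interval −0.16 to 0.13, edgeR adjusted p = 0.925), and its sign turned under several alternatives.

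Other transcripts moved in the same comparison. The summed CPM of 8 squamous and epithelial markers was 10450 to 11940 in siNC1 and 6476 to 7516 in siKLF5b. Most of it was KRT5, at 8083 to 9491 CPM in siNC1 and 4680 to 5720 CPM in siKLF5b (log2FC −0.69). Of the 8, 5 were lower and 1 was higher, DSG3 (0.21), while EPCAM and TP63 did not pass. The keratins KRT14 (log2FC −1.26) and KRT17 (−1.47) were past both thresholds. The part of these markers in the S100 result was not tested. In bulk RNA, fewer cells of a type and less RNA per cell cannot be told apart. Since S100A8 and S100A9 are abundant in myeloid cells, 7 myeloid markers were read: CD14, LYZ and FCGR3A had at most 2 counts in any library, and PTPRC had 2 to 40. The summed myeloid level, 90.9 to 95.6 CPM in siNC1 and 76.4 to 87.2 CPM in siKLF5b, came nearly all from CD68 and CSF1R. CD68 was at 33.4 to 36.2 CPM in siNC1 and at 21.2 to 24.2 CPM in siKLF5b (lower, log2FC −0.62, edgeR adjusted p = 2.71e-06), while CSF1R did not pass (0.0093, adjusted p = 0.952). The part of CD68 in the S100A8 and S100A9 values was not tested.

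**Figure D2:**
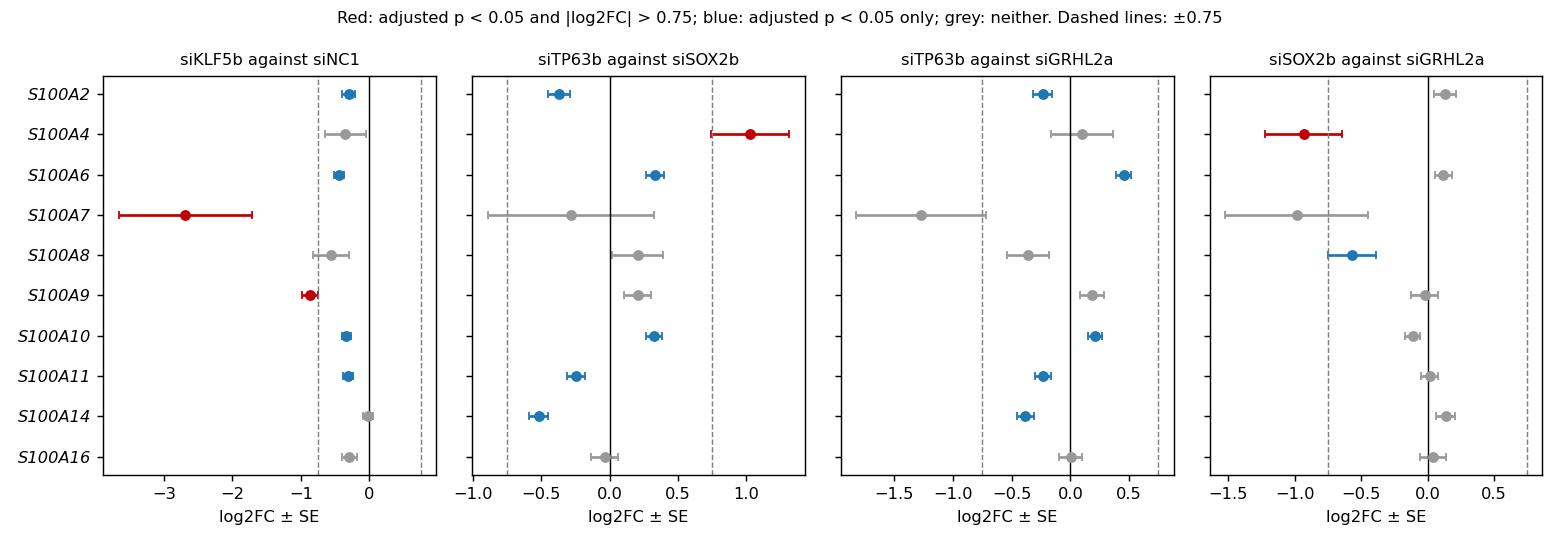
Log2FC of each S100 gene in the 4 comparisons, with its SE as bars and the 0.75 threshold as dashed lines, red for genes past both thresholds, blue for an adjusted p below 0.05 alone and grey for neither. Against siNC1 the siKLF5b estimates run from −2.69 for S100A7 to −0.015 for S100A14, whose sign turned with upper-quartile scaling, while among siTP63b, siSOX2b and siGRHL2a they lie on both sides of 0.

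The 3 other knockdowns were compared with each other, a question of which factor's loss leaves more of each transcript, with no control in the same column set. In siTP63b against siSOX2b, S100A4, S100A6 and S100A10 were higher, and S100A14, S100A2 and S100A11 were lower, at an adjusted p below 0.05 (edgeR). That is 3 of 10 higher, against 16.4% of all genes tested, and 3 of 10 lower, against 15.4%. Past both thresholds 1 was higher, S100A4, against 3.88% of all genes, and 0 were lower, against 2.82%, also by DESeq2. The median log2FC of the 10 was 0.085, and that of all genes was 0.00059. By overlap of libraries, 4 of 10 were higher in siTP63b (19.6% of all genes) and 3 lower (18.8%).

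S100A4 was at 1.63, 1.56 and 1.21 CPM in siTP63b, at 0.673, 0.909 and 0.531 CPM in siSOX2b and at 1.57, 1.51 and 1.04 CPM in siGRHL2a. All siSOX2b libraries were below all libraries of the other 2 groups. The level in siTP63b was 2.05-fold that in siSOX2b (log2FC 1.03 ± 0.288, edgeR adjusted p = 0.00592), and this call held in all alternatives run, with log2FC 0.88 to 1.26 and adjusted p from 0.00346 to 0.0311. These values rest on 12 to 54 counts per library, and S100A3 reads may be among them. S100A3 had 0 to 50% as many counts as S100A4 in the siSOX2b libraries, 8 to 21.7% in siTP63b and 20 to 37.0% in siGRHL2a.

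S100A14 was at 41.8, 40.9 and 45.7 CPM in siTP63b, at 63.3, 57.8 and 63.1 in siSOX2b and at 54.3, 59.6 and 53.8 in siGRHL2a. The siTP63b libraries were the lowest and overlapped with neither other group. The log2FC was −0.52 ± 0.071 against siSOX2b (edgeR adjusted p = 8.11e-07) and −0.38 ± 0.071 against siGRHL2a (9.12e-05). S100A2 was at 24.5, 22.8 and 26.1 CPM in siTP63b, at 30.5, 35.4 and 28.8 in siSOX2b and at 29.2, 31.4 and 25.9 in siGRHL2a. It was lower in siTP63b than in siSOX2b without overlap (−0.37 ± 0.084, adjusted p = 0.000836). Against siGRHL2a the S100A2 libraries overlapped (−0.24 ± 0.083, adjusted p = 0.0332), and the call was lost under DESeq2 (0.0656), in a fit of the 9 libraries alone (0.0537) and without siTP63b replicate 1 (0.0801), siTP63b replicate 2 (0.170), siGRHL2a replicate 1 (0.0858) or siGRHL2a replicate 2 (0.190).

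S100A6 and S100A10 had their highest levels of the 3 groups in siTP63b. S100A6 was at 77.9, 78.5 and 74.8 CPM there, at 59.1, 59.4 and 64.8 in siSOX2b and at 56.2, 62.3 and 50.2 in siGRHL2a. Its log2FC was 0.34 ± 0.065 against siSOX2b (edgeR adjusted p = 0.000153) and 0.45 ± 0.065 against siGRHL2a (2.25e-06), with no overlap in either. The lncRNA ENSG00000238279 had log2FCs of 0.31 and 0.52 in these comparisons. It had 64.9 to 72.4% as many counts as S100A6 in these 9 libraries, and 95.4 to 97.0% in the siNC1 and siKLF5b libraries, so this share differed between the column sets. S100A10 was at 139, 139 and 132 CPM in siTP63b, at 103, 119 and 106 in siSOX2b and at 108, 124 and 122 in siGRHL2a, again without overlap. Its log2FC was 0.32 ± 0.058 (edgeR adjusted p = 5.57e-05) and 0.21 ± 0.058 (0.00631), the second lost without siGRHL2a replicate 1 (0.068).

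Unlike S100A10, S100A11 was lower in siTP63b. It was at 37.3, 39.2 and 42.0 CPM in siTP63b, at 46.0, 46.4 and 48.4 in siSOX2b and at 46.3, 43.0 and 49.9 in siGRHL2a, with siTP63b lowest and without overlap. The log2FC was −0.25 ± 0.066 against siSOX2b (edgeR adjusted p = 0.00419) and −0.23 ± 0.066 against siGRHL2a (0.00771), the latter lost without siTP63b replicate 1 (0.0679) or siGRHL2a replicate 3 (0.0934). ENSG00000229021 had log2FCs of −0.22 and −0.25. S100A16 was at 9.86 to 10.8 CPM in siTP63b, 10.04 to 10.9 in siSOX2b and 9.78 to 11.3 in siGRHL2a, with overlap throughout and intervals of −0.23 to 0.16 and −0.19 to 0.20 against siSOX2b and siGRHL2a.

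Over the 10 genes, siTP63b against siGRHL2a gave 3 lower (S100A14, S100A11 and S100A2, against 13.4% of all genes) and 2 higher (S100A6 and S100A10, against 13.6%) at an adjusted p below 0.05. Past both thresholds 0 of the 10 were lower or higher, against 3.21% and 2.18% of all genes, and DESeq2 also gave 0. At an unadjusted p below 0.05, 4 were lower (18.7% of all genes) and 2 higher (18.2%). By overlap, 3 were lower (17.8% of all genes) and 3 higher (17.8%). The lower counts by unadjusted p and by overlap both include S100A7. That gene entered the test through 1 siSOX2b and 2 siGRHL2a libraries and no siTP63b library, so the filter itself favoured a higher siGRHL2a level. The median log2FC was −0.12, beside −0.0090 over all genes. These comparisons share the siTP63b libraries.

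Of the alarmins S100A7, S100A8 and S100A9, S100A8 alone passed the test among these groups, in 1 of 3 comparisons. S100A8 was at 5.48, 3.84 and 4.35 CPM in siTP63b, at 4.71, 2.97 and 4.202 in siSOX2b and at 7.31, 4.52 and 5.75 in siGRHL2a, and every pair of groups overlapped. It was lower in siSOX2b than in siGRHL2a (log2FC −0.57 ± 0.182, edgeR adjusted p = 0.0197), a call lost under DESeq2 (0.0566) and without siSOX2b replicate 2 (0.169) or siGRHL2a replicate 1 (0.185). Against siGRHL2a, S100A8 in siTP63b had a log2FC of −0.36 (adjusted p = 0.138), which passed without siGRHL2a replicate 2 (0.0408). S100A9 was at 14.4, 16.8 and 14.5 CPM in siTP63b, at 12.3, 13.3 and 14.1 in siSOX2b and at 14.3, 13.3 and 12.6 in siGRHL2a. Its siTP63b libraries were above the others, but neither test was passed (adjusted p = 0.124 and 0.184 from edgeR).

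S100A7 had 4 to 8 counts per library in siTP63b, 4 to 12 in siSOX2b and 10 to 20 in siGRHL2a. In CPM these were 0.261, 0.136 and 0.214, then 0.122, 0.364 and 0.265, then 0.580, 0.301 and 0.612. The siGRHL2a libraries were above all siTP63b libraries, and the log2FC of −1.27 did not pass (95% interval −2.35 to −0.18, edgeR adjusted p = 0.0893). S100A7 entered the test through 2 siGRHL2a libraries and 1 siSOX2b library, so this difference cannot be read as a result. The ratio of S100A8 to S100A9 CPM was 0.229 to 0.380 in siTP63b, 0.223 to 0.383 in siSOX2b and 0.340 to 0.512 in siGRHL2a. In this column set the ratio was above that of all siNC1 libraries, a contrast that the column sets do not allow to be tested.

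In siSOX2b against siGRHL2a, 2 of the 10 genes were lower at an adjusted p below 0.05, S100A4 and S100A8, against 12.7% of all genes, and 0 rose, against 11.8% (0 also at an unadjusted p below 0.05, where 16.8% of all genes were higher, and by DESeq2). S100A4 was also past both thresholds (2.27% of all genes were lower and 1.05% higher in this way), at 0.524-fold (log2FC −0.93 ± 0.286, edgeR adjusted p = 0.0157), and it was the 1 gene of the 10 whose libraries did not overlap (18.6% of all genes were lower and 16.6% higher without overlap). The call was lost without siSOX2b replicate 1 (0.0566), siSOX2b replicate 3 (0.0677), siGRHL2a replicate 1 (0.0676) or siGRHL2a replicate 2 (0.0546). The 8 others did not pass. S100A6 passed without siGRHL2a replicate 2 (0.0356) and S100A10 without siSOX2b replicate 2 (0.0481) or siGRHL2a replicate 1 (0.0483). The median of the 10 was −0.0035, beside −0.018 over all genes.

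Squamous markers also moved among these 3 groups. Their summed level was 6688 to 7677 CPM in siTP63b, 9575 to 10540 in siSOX2b and 12120 to 12470 in siGRHL2a. Most of it was KRT5, at 5198 to 6029, 7004 to 7850 and 9003 to 9342 CPM in the same order. EPCAM, at 189 to 238, 213 to 221 and 205 to 226 CPM, did not pass in any of these comparisons. KRT14 and KRT17 were lower in siTP63b than in siSOX2b, both with a log2FC of −1.17, and lower than in siGRHL2a (−1.53 and −1.38). DSC3 was also past both thresholds against siGRHL2a (−1.05). At an adjusted p below 0.05, 5 of the 8 markers were lower in siTP63b than in siSOX2b (15.4% of all genes). Against siGRHL2a, 6 were lower in siTP63b (13.4%) and 7 in siSOX2b (12.7%), and 0 were higher in any of these comparisons. TP63, the siTP63b target, is among the 8. The summed myeloid level was 47.8 to 53.0, 60.1 to 63.7 and 59.1 to 68.0 CPM in siTP63b, siSOX2b and siGRHL2a. CSF1R was lower in siTP63b than in siSOX2b (log2FC −0.43, edgeR adjusted p = 4.77e-05) and siGRHL2a (−0.47, 1.18e-05). CD68 was lower in siTP63b than in siGRHL2a (−0.25, 0.0204) but did not pass against siSOX2b (−0.15, 0.168). Between siSOX2b and siGRHL2a, CSF1R (−0.045) and CD68 (−0.099) did not pass. PTPRC was higher in siSOX2b than in siGRHL2a (edgeR adjusted p = 0.0263, on 2 to 40 counts), a call lost under DESeq2 (0.0576). Endothelial markers summed to 3.15 to 15.1 CPM over all libraries and fibroblast markers to 3.75 to 9.995 CPM, with DCN at or under 3 counts in every library. PDGFRB was lower in siKLF5b than in siNC1 (−0.85) and in siTP63b than in both other groups (−1.20 and −1.04). VWF was lower in siSOX2b than in siGRHL2a (−0.86). The part of these in the S100 values was not tested.

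**Figure D3:**
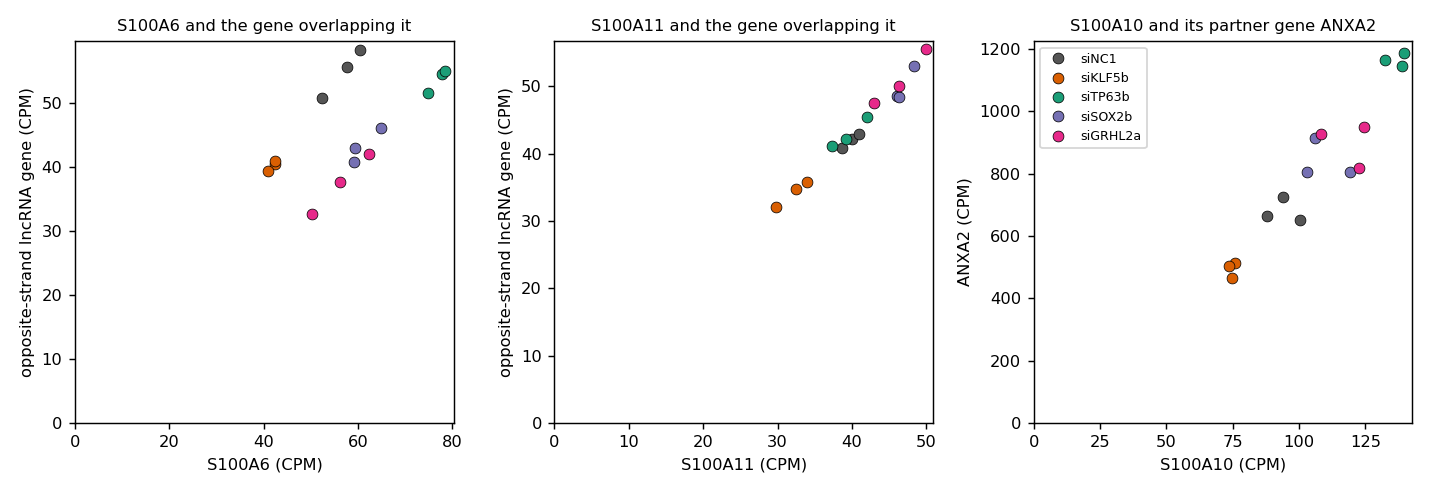
CPM in the 15 libraries of S100A6 and S100A11 against their opposite-strand lncRNAs and of S100A10 against ANXA2, with the groups in colour. S100A10 and ANXA2 are both lowest in siKLF5b, at 73.5 to 75.8 and 467 to 514 CPM, and both highest in siTP63b, at 132 to 139 and 1147 to 1189 CPM.

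Annexins are the calcium-dependent membrane-binding proteins that S100A10, S100A11 and others grip, and 11 of 12 could be tested. In siKLF5b against siNC1, 4 fell and 1 rose at an adjusted p below 0.05 (12.9% and 10.3% of all genes), and ANXA3 fell past both thresholds (log2FC −1.12 ± 0.061, edgeR adjusted p = 9.67e-15). Against siSOX2b, siTP63b had 2 lower and 7 higher (15.4% and 16.4% of all genes), with ANXA9 past both thresholds (0.93 ± 0.286, adjusted p = 0.0128). Against siGRHL2a it had 3 lower and 6 higher (13.4% and 13.6%), and siSOX2b against siGRHL2a had 1 lower and 2 higher (12.7% and 11.8%), with none of the 11 past both thresholds in either. Their median log2FCs were −0.075, 0.30, 0.23 and −0.065 in the 4 comparisons.

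ANXA2, the partner of S100A10, was looked up after its values had been seen. It was at 650.4 to 726 CPM in siNC1, 467 to 514 in siKLF5b, 1147 to 1189 in siTP63b, 805 to 916 in siSOX2b and 820 to 949 in siGRHL2a. The siKLF5b log2FC was −0.46 ± 0.057 (edgeR adjusted p = 2.70e-07), beside −0.33 for S100A10. In siTP63b it was 0.47 against siSOX2b and 0.38 against siGRHL2a, beside 0.32 and 0.21 for S100A10. Between siSOX2b and siGRHL2a, ANXA2 (−0.094, adjusted p = 0.244) and S100A10 (−0.11, 0.164) did not pass. ANXA2 has processed pseudogenes, so its counts are uncertain.

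Of 16 receptors and other binding partners, 15 were tested, and their counts are read against the same shares of all genes as those of the annexins. In siKLF5b 5 fell and 0 rose (0 also at an unadjusted p below 0.05 and by DESeq2), and MCAM, a cell adhesion receptor that binds S100A8 and S100A9, was past both thresholds (log2FC −0.84 ± 0.103, edgeR adjusted p = 2.28e-07). Between siTP63b and siSOX2b 6 were lower and 1 higher, and between siTP63b and siGRHL2a 1 was lower and 2 higher. Between siSOX2b and siGRHL2a 2 were lower and 5 higher, and PLAT, the plasminogen activator that S100A10 can bind, was higher past both thresholds (0.87 ± 0.066, adjusted p = 2.09e-11). The median log2FCs were −0.13, −0.10, 0.0051 and 0.058.

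The rest of the family gave few values. Of 11 other S100 genes, S100A1, S100A5 and S100A13 were tested, and in siKLF5b against siNC1 and siTP63b against siSOX2b none of these 3 passed the edgeR test or DESeq2, with 2 and 0 at an unadjusted p below 0.05. In siKLF5b these 2 were S100A5, higher (log2FC 0.72), and S100A13, lower (−0.27). S100A1, at 10 to 38 counts per library, had a log2FC of 0.68 there. The median of these 3 in siKLF5b, 0.68, is the S100A1 value itself, which did not pass. S100A13, the best counted of the 3 at 172 to 393 counts per library, had the same sign as the median of the 10 S100 genes (−0.34). S100A1 and S100A5, both at low counts, had the opposite sign. The median of these 3 therefore does not show how the rest of the family moved. S100A5, at 8 to 35 counts per library, was lower in siTP63b than in siGRHL2a (log2FC −1.55 ± 0.354, adjusted p = 0.0011) and lower in siSOX2b than in siGRHL2a (−1.27 ± 0.344, adjusted p = 0.00614). The remaining 8, among them S100A12 and S100P, had 0 to 32 counts in any library. Of 7 fused-type S100 proteins, large cornified-layer proteins such as filaggrin that carry an S100 domain at one end, 4 were tested and 0 passed in any comparison with edgeR or DESeq2, with 1 at an unadjusted p below 0.05, in siSOX2b against siGRHL2a.

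Genes of the same region that are not S100 genes were counted for context. Of 11 such neighbours 9 were tested. In siKLF5b against siNC1 2 fell, DENND4B (log2FC −0.29) and CHTOP (−0.26), and 1 rose, INTS3 (0.18), beside 12.9% and 10.3% of all genes. None of the 9 passed both thresholds in any of the 4 comparisons. Their median log2FC was −0.11 in siKLF5b against siNC1, beside −0.34 for the 10 S100 genes. The medians in the other comparisons were −0.025, 0.13 and 0.067.

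**Figure D4:**
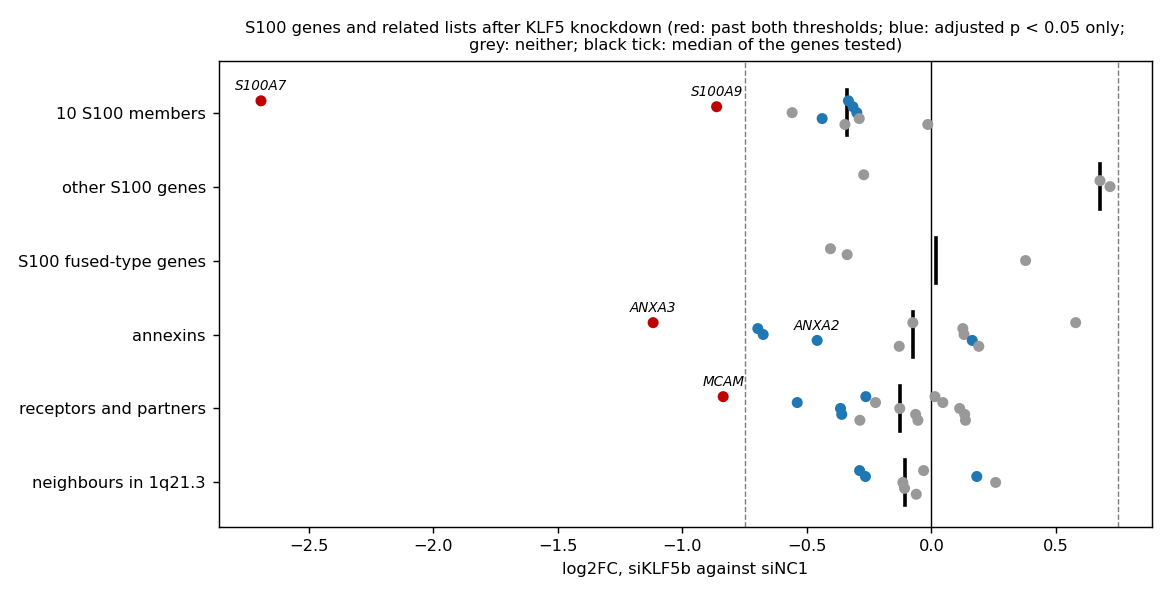
Log2FC of siKLF5b against siNC1 for the 10 S100 genes and for the related gene lists, 1 point per gene tested, red past both thresholds, blue at an adjusted p below 0.05 alone and grey for neither, with a tick at each median. The S100 median is −0.34 and the neighbour median −0.11, and PGLYRP3 and the fused-type gene RPTN, with at most 3 counts in each of these 6 libraries, are counted in the medians but not drawn.

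For the 3 genes past both thresholds in any comparison, likeness was ranked over the 15338 genes that averaged 100 counts or more, as the root mean square difference over the 5 group means of log2 CPM, each taken relative to its column set. Nearest to S100A9 were CBLC (0.0342), ZBTB41 (0.0465) and ARID3B (0.0491). Nearest to S100A4 were CRACDL (0.0379), DGCR2 (0.0414) and FMR1 (0.0451). Nearest to S100A7, whose counts are very low, were PSG5 (0.0917), PSAPL1 (0.110) and EPHB3 (0.131). These distances rest on 5 group means, not all free to vary because each was taken relative to its column set. They describe likeness in these libraries alone, and how near a match arises among so many genes by chance was not tested.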

How the data were processed

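Polyadenylated RNA of 15 HCC95 libraries was sequenced as paired-end reads. The authors aligned reads to hg38 with HISAT2 2.2.1 and counted uniquely aligned reads on genes with featureCounts 2.0.1 and Gencode 40. The deposited values are raw counts, without normalization, and 0 count columns were without a sample. Whether reads or fragments were counted, and on which strand, is not given in the sources used here. The study used DESeq2 for differential expression. Gene positions were checked in Gencode 44, and promoter windows came from RefSeq.

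Counts were fitted with edgeR 4.0.16 (R 4.3.3): filterByExpr by group, TMM factors, and 1 quasi-likelihood fit of all 15 libraries, with Benjamini-Hochberg adjustment over the 25108 genes tested. Both thresholds means adjusted p under 0.05 with a log2FC beyond 0.75 in size. Standard errors were the log2FC divided by the square root of F, and 95% intervals were 1.96 SE wide on each side. Fitted changes of S100A7 depend on the prior count. All 10 members passed the low-count filter, S100A7 through 1 siSOX2b and 2 siGRHL2a libraries. Replicate libraries differed by more than counting noise (chi-square per gene 2.04 to 8.13). In simulated counts of 25108 genes, 200 of 200 genes changed by a log2FC of 1.5 were called in each comparison, with 0 to 6 unchanged genes. The simulation used the same spread for all genes and changed only well-counted ones. It does not show how genes near the floor or smaller changes are called.

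The S100 genes and the lists of related genes were chosen with earlier results of these data known. All 10 S100 genes were named, and from each related list the genes past both thresholds, up to 5 per comparison by adjusted p. CHTOP, DENND4B, INTS3, PGLYRP3, RPTN, ANXA2, KRT5, DSG3 and EPCAM were named after their values were seen. For likeness, the 3 nearest genes were named. Alternatives were RLE and upper-quartile scaling, other count filters, DESeq2 1.42.0, the replicate number as a block, halved counts in 9 libraries, each column set alone, other log2FC thresholds, and each library left out.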

Additional observations from a re-analysis of the deposited data

How the results depend on the processing

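With siKLF5b against siNC1, the count of S100 genes lower past both thresholds was 2. It was 1, S100A9, without a low-count filter, with at least 10 counts in every library and under DESeq2. The same gene remained with halved counts in 9 libraries and within the column set alone. With a log2FC threshold of 1 the count was also 1, but this was S100A7, as S100A9 (log2FC −0.86) fell short. With no log2FC threshold it was 6. S100A7 was not tested with at least 10 counts, halved counts or the column set alone, and DESeq2 gave it no adjusted p. Leaving out 1 library gave 0 to 2, the 0 without siNC1 replicate 1. With no log2FC threshold, siTP63b against siSOX2b gave 3 lower and 3 higher in place of 0 and 1, siTP63b against siGRHL2a gave 3 lower and 2 higher in place of 0 and 0, and siSOX2b against siGRHL2a gave 2 lower in place of 1. The last was 0 with a threshold of 1, and 0 to 1 with 1 library left out.

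The replicate number was also fitted as a block. The deviations of same-numbered libraries correlated by −0.031 to 0.034. The siSOX2b libraries correlated best with the siGRHL2a libraries of their own number (0.018 to 0.029). The siKLF5b libraries did not do so with siNC1, and the comparisons with siTP63b were mixed. Correlations this small do not settle whether the numbers pair libraries. With the replicate block the siKLF5b count was 1 in place of 2, and the other counts past both thresholds did not change.

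Of 545 values of single genes under alternatives, 517 kept their direction and whether they passed both thresholds together, 12 no longer passed both and 16 turned in sign, all of the last from values that did not pass the test. S100A14 in siKLF5b against siNC1 was 0.0036 with upper-quartile scaling, 0.0030 with halved counts and 0.0012 within the column set, and 0.043, 0.012 and 0.026 without siNC1 replicate 1, siNC1 replicate 2 or siKLF5b replicate 1. In siTP63b against siSOX2b, S100A7 was 0.14 without siSOX2b replicate 2. In siTP63b against siGRHL2a, S100A4 was −0.052 without siGRHL2a replicate 3, and S100A16 was −0.0036 with upper-quartile scaling and −0.019, −0.033 and −0.015 without siTP63b replicate 2, siGRHL2a replicate 1 or siGRHL2a replicate 3. In siSOX2b against siGRHL2a, S100A9 was 0.042 and 0.033 without siSOX2b replicate 1 or siGRHL2a replicate 1, and S100A11 was −0.0027 with upper-quartile scaling and −0.037 without siGRHL2a replicate 2. The adjusted p alone crossed 0.05 in 31 of the 545, 25 of them lost and 6 gained. With 1 library left out, the other ends of these ranges were −0.11 for S100A14, −0.64 for S100A7, 0.23 for S100A4, 0.075 for S100A16, −0.051 for S100A9 and 0.084 for S100A11. The cause was not tested for these. S100A16 in siKLF5b against siNC1 passed with halved counts (edgeR adjusted p = 0.0467) and within the column set (0.0423).

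Depth limits S100A7 and S100A4 most, at 0 to 54 counts per library. All fold changes are of polyadenylated RNA counted over whole gene spans, and no protein was measured here.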
